A study of Mus musculus with 4 samples.

Results

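Retinoic acid is made from vitamin A inside the tissue and is destroyed there as well, so its level in a fetal gonad depends on enzymes of both kinds. The 8 genes described here are those of retinoic acid metabolism and binding: the degrading enzymes Cyp26a1 and Cyp26b1, the synthesising enzymes Aldh1a1, Aldh1a2 and Aldh1a3, the carrier proteins Crabp1 and Crabp2, and the receptor gene Rarb. They were chosen by gene name, and each was found through the RefSeq accession of its probe, 1 probe per gene. Of the 8 genes, out of 33390 that the array names, 7 passed the filter on dim probes and were tested among 21986 genes, and Cyp26a1 did not pass it.

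The samples were whole gonads of wild-type male mouse embryos of the line that the labels name MCH, taken on 4 days of gestation, embryonic day 12.5 (E12.5), 13.5 (E13.5), 14.5 (E14.5) or 15.5 (E15.5). By their labels the 4 groups differed in age alone, with no mutant, transgene or treatment. Each stage had 2 one-colour arrays, described by the submitters as biological duplicates, which makes 8 arrays. The labels do not say how many embryos a sample held or how much of the adjoining mesonephros was removed.

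In the fetal gonad, Aldh1a enzymes oxidise retinal to retinoic acid, and Cyp26 enzymes hydroxylate retinoic acid and so inactivate it. Retinoic acid binds nuclear receptors of the RAR family and induces meiotic genes such as Stra8 in the germ cells of the fetal ovary. In the fetal testis, Cyp26b1 is the enzyme known for keeping retinoic acid away from germ cells, which do not enter meiosis there before birth. The Crabp proteins bind retinoic acid in the cytoplasm, and Rarb is both a receptor gene and a classical target of the receptors.

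The arrays lay on 3 slides. The first array of the 2 earlier stages was on slide 1 and their second array on slide 2, while the 4 arrays of the later stages shared slide 3 and a scan session of its own. A change between E12.5 and E13.5 could therefore be followed within slides 1 and 2, and a change between E14.5 and E15.5 within slide 3. Any change between E13.5 and E14.5, and hence over the whole span, crosses slides, and there slide and stage cannot be told apart. The same holds for the scan session and the version of the scanner software, 9.1.3.1 for the earlier stages and 9.5.3.1 for the later. Between 60.3% and 69.8% of probes were well above background on an array, and the 75th percentile of the processed signal lay between 802.1 and 1784.4. All 7 Sertoli cell markers, all 6 germ cell markers and all 5 fetal Leydig cell markers were well above background on both arrays of every stage.

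Promoters of 3 of these genes are shown because retinoic acid receptors bind direct repeats of a short half-site, and because the degrading enzyme that changed and the one near background could be set beside the receptor gene. The sequences are those of RefSeq, build GRCm38.p6, and run from 250 bases before to 50 bases after a transcript start. The table held 7 promoters of 6 of the 8 genes, Aldh1a1 having 2, with none for Aldh1a3 and Crabp2. The half-sites searched were AGGTCA with its related form AGTTCA, and beside these the form GGTTCA with its relative GGGTCA. Any pair of them was read as a direct repeat on both strands with 5, 2 or 1 bases between. Capitals mark the repeat with a spacing of 5, written as it reads on the strand of the gene. The Rarb window is chr14:16575427-16575726 on the minus strand and starts from a transcript start inside the span of the gene. The Cyp26a1 window is chr19:37697558-37697857 on the plus strand, and the Cyp26b1 window is chr6:84593761-84594060 on the minus strand.
Rarb: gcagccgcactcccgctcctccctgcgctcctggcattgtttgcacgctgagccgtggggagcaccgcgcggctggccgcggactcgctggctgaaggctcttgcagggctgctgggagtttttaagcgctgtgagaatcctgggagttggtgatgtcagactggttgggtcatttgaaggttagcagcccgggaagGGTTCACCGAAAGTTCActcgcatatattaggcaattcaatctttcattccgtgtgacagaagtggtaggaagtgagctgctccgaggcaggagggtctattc
Cyp26a1: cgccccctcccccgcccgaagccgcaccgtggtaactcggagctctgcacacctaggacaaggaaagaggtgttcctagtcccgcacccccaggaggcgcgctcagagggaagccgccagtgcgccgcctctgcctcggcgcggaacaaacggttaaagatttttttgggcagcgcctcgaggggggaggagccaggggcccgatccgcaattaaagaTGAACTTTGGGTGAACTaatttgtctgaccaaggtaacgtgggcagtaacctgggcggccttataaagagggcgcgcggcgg
Cyp26b1: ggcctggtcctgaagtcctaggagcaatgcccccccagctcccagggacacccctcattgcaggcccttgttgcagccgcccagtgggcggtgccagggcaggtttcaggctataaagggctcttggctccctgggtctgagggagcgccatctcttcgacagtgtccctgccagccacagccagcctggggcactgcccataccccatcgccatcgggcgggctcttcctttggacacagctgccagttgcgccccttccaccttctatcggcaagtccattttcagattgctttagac
Rarb held the repeat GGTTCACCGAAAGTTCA from -53 to -37, counted from the transcript start. Cyp26a1 held a repeat on the opposite strand from -32 to -16, which reads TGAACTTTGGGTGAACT on the strand of the gene. The Cyp26b1 window held none of the repeats searched, which says only that these letters are not in this window. Of 32851 promoters of the same length, 32 (0.0974%) held a repeat with a spacing of 5. Repeats with a spacing of 2 stood in 88 promoters (0.268%) and those with a spacing of 1 in 73 (0.222%), none of them a promoter of the 8 genes. The half-sites differ from each other by few letters, and a match is a description of the sequence and not evidence of binding.

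Of the 2 degrading enzymes Cyp26b1 fell, and Cyp26a1 could not be tested. Cyp26b1 was highest at E12.5 and lowest at E15.5, 3.44-fold lower, with most of the fall between E13.5 and E14.5. Values throughout are log2 of the background-subtracted signal relative to the 75th percentile of the array, a scale on which a change of 1 is a doubling and on which the levels of different probes cannot be set against each other. The gene (chr6:84571414-84593908, GRCm38.p6) gave 4.37 and 4.46 on the E12.5 arrays, 4.08 and 4.17 at E13.5, 2.85 and 2.84 at E14.5, and 2.74 and 2.53 at E15.5. Both arrays of each stage lay below both arrays of the stage before, so no neighbouring stages overlapped.

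Tests were made with limma over all 21986 genes, with Benjamini-Hochberg adjustment and a call at an adjusted p under 0.05, and ± marks the standard error for 2 arrays per stage. Cyp26b1 fell by 1.28 ± 0.17 on the log2 scale from E13.5 to E14.5 (limma adjusted p = 0.0122), with a 95% interval of -1.70 to -0.87. Over the whole span it fell by 1.78 ± 0.17 (limma adjusted p = 0.000788, interval -2.20 to -1.37). The differences between stages on shared slides did not pass the test, in a fit without slide as a block. They were -0.29 from E12.5 to E13.5 (limma adjusted p = 0.485), with -0.30 on slide 1 and -0.28 on slide 2, and -0.21 from E14.5 to E15.5 (limma adjusted p = 0.907). With slide as a fixed block, the difference from E12.5 to E13.5 had a limma adjusted p of 0.418. The stages thus ordered by age, the youngest highest, with the difference between the first 2 and that between the last 2 not passing the test.

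The call between E13.5 and E14.5 was lost without E13.5 array 1 (limma adjusted p = 0.0587), E13.5 array 2 (0.0742) or E14.5 array 1 (0.0542), at changes between -1.33 and -1.23. The fall over the whole span was called under every alternative that gave it. Changes as low as that of Cyp26b1 were found in 5.16% of genes tested from E13.5 to E14.5, and in 5.79% over the whole span. In tissue RNA, fewer cells of a type and less RNA per cell cannot be told apart.

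Cyp26a1 (chr19:37697738-37701536), which degrades retinoic acid in many tissues of the early embryo, was near the background throughout. Its processed signal lay between 4.3 and 29.7, and it was well above background on 4 of 8 arrays, array 1 of each stage. On the relative log2 scale it gave -5.56 and -7.55 at E12.5, -5.60 and -5.98 at E13.5, -5.91 and -6.42 at E14.5, and -5.91 and -6.22 at E15.5. Array 2 was the lower one at every stage, and the stages overlapped in every comparison, so no change could be read. Cyp26c1, the remaining member of the family, had no probe matched to its symbol.

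**Figure D1:**
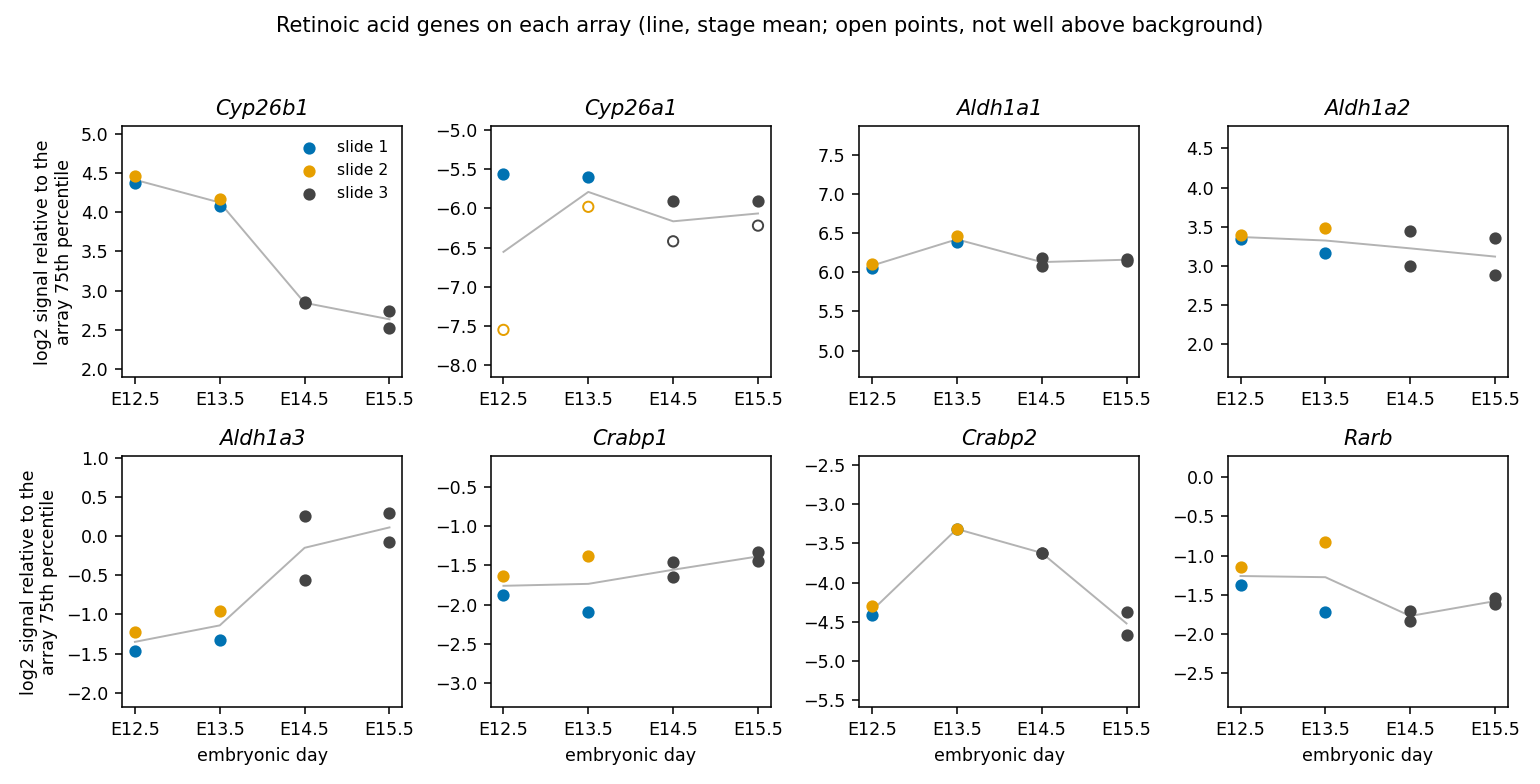
Values of the 8 retinoic acid genes on each of the 8 arrays, as log2 signal relative to the 75th percentile of the array, by embryonic day. Colours mark the 3 slides, the line joins stage means, open points were not well above background, and each panel has its own range. Cyp26b1 drops from 4.13 to 2.84 between E13.5 and E14.5, Aldh1a3 lies higher at E15.5 than at E12.5, and Crabp2 peaks at E13.5.

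None of the synthesising enzymes fell past the threshold in any comparison, and Aldh1a3 rose over the whole span. Aldh1a1 (chr19:20492583-20643463), an enzyme that makes retinoic acid from retinal and is also used as a marker in adult tissues, was not called in any comparison. It gave 6.06 and 6.11 at E12.5, 6.38 and 6.46 at E13.5, 6.18 and 6.08 at E14.5, and 6.15 and 6.17 at E15.5. The E13.5 arrays were the highest, and those of the other stages lay within a range of 6.06 to 6.18. Its difference from E12.5 to E13.5 was 0.33 ± 0.16 (limma adjusted p = 0.380), with 0.32 on slide 1 and 0.34 on slide 2. From E12.5 to E15.5 it was 0.07 ± 0.16 (limma adjusted p = 0.754), and the 95% interval ran from -0.32 to 0.46.

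Aldh1a2 (chr9:71215789-71296243), the enzyme that makes most retinoic acid of the early embryo and is known from the mesonephros beside the gonad, gave 3.34 and 3.40 at E12.5, 3.17 and 3.48 at E13.5, 3.45 and 3.0 at E14.5, and 2.88 and 3.36 at E15.5. The duplicates of E13.5, E14.5 and E15.5 lay further apart than the stage means, and the stages overlapped in every comparison. The difference over the whole span was -0.25 ± 0.26 (limma adjusted p = 0.474), with an interval of -0.86 to 0.36. A fall as large as that of Cyp26b1 lies outside this interval.

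Aldh1a3 (chr7:66390892-66427477), the third enzyme of the same step, gave -1.47 and -1.23 at E12.5, -1.33 and -0.95 at E13.5, 0.26 and -0.56 at E14.5, and -0.08 and 0.30 at E15.5. The 4 arrays of the later stages were all above the 4 of the earlier stages. It rose 2.76-fold from E12.5 to E15.5, by 1.46 ± 0.32 on the log2 scale (limma adjusted p = 0.0148, interval 0.69 to 2.23). This call was lost without E12.5 array 1 (limma adjusted p = 0.0664) or E15.5 array 2 (0.0922). The difference between E13.5 and E14.5 was 0.99 ± 0.32 (limma adjusted p = 0.0898), and without E14.5 array 2 it was called at 1.40 (limma adjusted p = 0.0485). The differences within slides were 0.21 from E12.5 to E13.5 and 0.26 from E14.5 to E15.5, neither of them called. A rise as large as that over the whole span was found in 10.3% of genes.

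Set side by side over the whole span, the degrading enzyme Cyp26b1 changed by -1.78, and the synthesising enzymes by 0.07 for Aldh1a1, -0.25 for Aldh1a2 and 1.46 for Aldh1a3. Between E13.5 and E14.5 the same values were -1.28 for Cyp26b1, -0.29 for Aldh1a1, -0.10 for Aldh1a2 and 0.99 for Aldh1a3. The 95% intervals of Cyp26b1 shared no value with that of any synthesising enzyme in these 2 comparisons. Both comparisons cross slides, and the intervals hold only the spread between duplicates. The difference between the enzymes was not tested. Within slides, from E12.5 to E13.5 and from E14.5 to E15.5, none of the 4 enzymes changed past the threshold. These are changes of RNA, and the ratio of the enzymes to each other, their proteins and retinoic acid itself were not measured.

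**Figure D2:**
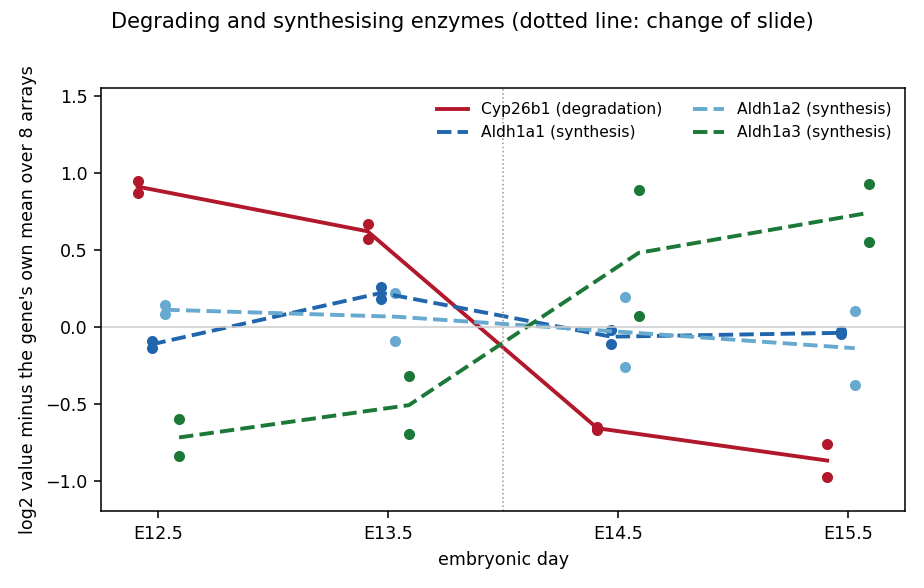
Each array's log2 value minus the mean of that gene over all 8 arrays, by embryonic day, for the degrading enzyme Cyp26b1 (solid line) and the 3 synthesising enzymes (dashed lines), with points for arrays and lines through stage means. Cyp26b1 runs from above its mean to below it and Aldh1a3 from below to above, both with the largest step at the dotted line where the slide changes, whereas Aldh1a1 and Aldh1a2 stay near their means.

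Markers of cell types were read beside these results. Of all genes, 17.4% were called lower and 17.6% higher over the span. From E13.5 to E14.5, 6.04% were called lower and 6.44% higher. The lists are short, and their counts are description alone. Cyp26b1 is known from Sertoli and interstitial cells, and of 7 Sertoli cell markers 1, Cldn11, was lower from E12.5 to E15.5, with a median change of -0.42 over the list against -0.07 over all genes. The summed linear level of the Sertoli list, relative to the 75th percentile of the array, ranged from 71.8 to 77.5 on the E12.5 arrays and from 47.5 to 63.7 on the E15.5 arrays. Of 4 interstitial mesenchyme markers 1, Pdgfra, was higher, and their summed level went from 32.8 to 33.6 at E12.5 up to 46.9 to 54.7 at E15.5. All 5 fetal Leydig cell markers were higher over the span, with a median change of 2.52, and 0 of them were called from E13.5 to E14.5. Of 7 markers of mesonephros and nephric duct, 3 were lower and 1 higher over the span, with a median of -2.24. Their summed level was 4.22 to 4.66 at E12.5, 1.84 to 2.24 at E13.5, 1.33 to 1.92 at E14.5 and 1.21 to 1.30 at E15.5. From E12.5 to E13.5, 1 of these 7 was lower, with a median of -0.49. From E13.5 to E14.5, 3 of these 7 were lower, with a median of -1.66. Some markers of other cells were also lower from E13.5 to E14.5 and over the span. Both tested blood markers were lower in each. Over the span Hbb-y fell by 6.77 and Hba-x fell by 5.75, and the summed level of the blood list went from 118 to 132 at E12.5 down to 0.922 to 1.74 at E15.5. Of 6 germ cell markers 3 were lower in each and 1 was higher over the span. Their summed level was 66.4 to 72.4 at E12.5 and 35.1 to 44.2 at E15.5, a sum in which bright markers weigh most. Over the span Dppa3 changed by -4.40, Dazl by -1.61, Pou5f1 by -1.07, Kit by -0.03, Ddx4 by 0.89 and Dnd1 by 1.48. Of 4 endothelial markers 1, Kdr, was lower in each and fell by 2.59 over the span. The other 3 were not called, and from E13.5 to E14.5 they went up, by 0.31 for Pecam1, 0.16 for Cdh5 and 0.59 for Tek. The median of the list was 0.24 there and -0.26 over the span. Its summed level was 6.92 to 7.48 at E12.5 and 3.33 to 3.37 at E15.5. The part of these cell types in the changes of Cyp26b1 and Aldh1a3 was not tested.

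Crabp2 was the one of the 7 genes whose change could be seen within slides. Crabp2 (chr3:87948693-87953372), which delivers retinoic acid to the receptors, gave -4.41 and -4.30 at E12.5, -3.31 and -3.32 at E13.5, -3.62 and -3.62 at E14.5, and -4.37 and -4.67 at E15.5. The E13.5 arrays were the highest and the 2 outer stages overlapped. It rose 2.05-fold from E12.5 to E13.5, by 1.03 ± 0.18 (limma adjusted p = 0.0332), with 1.09 on slide 1 and 0.98 on slide 2. From E14.5 to E15.5, on slide 3, it differed by -0.90 ± 0.18 without passing the test (limma adjusted p = 0.113), and 1.51% of genes had a change as low.

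The rise of Crabp2 kept its direction under each alternative, and its call was lost without any 1 of the 8 arrays, at a limma adjusted p between 0.0533 and 0.178. Its processed signal was low, between 40.8 and 124.1, and under the other background correction with extreme values replaced the rise was 0.50 (limma adjusted p = 0.239). Markers of fetal Leydig cells rose at the same step, where 2.68% of all genes were called higher. All 5 were higher at E13.5 than at E12.5, with a median change of 2.04 and a summed level going from 23.7 to 30.8 at E12.5 up to 100 to 130 at E13.5, and at E15.5 their summed level was 134 to 159. The summed linear level of the germ cell list was 66.4 to 72.4 at E12.5, 98.8 to 99.1 at E13.5, 53.8 to 69.2 at E14.5 and 35.1 to 44.2 at E15.5. Bright markers weigh most in such a sum. From E13.5 to E15.5, Dppa3 went from 5.77 to 0.90, Pou5f1 from 3.02 to 1.39 and Dazl from 2.84 to 1.59. Ddx4 went from 3.86 to 3.97, Dnd1 from 3.79 to 3.83 and Kit from -0.90 to 0.67. Of the 6 germ cell markers, 1 was called higher and 1 lower from E12.5 to E13.5. The part of either cell type in the values of Crabp2 was not tested.

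Crabp1 (chr9:54764748-54773110), the carrier known for holding and passing on retinoic acid for breakdown, gave -1.88 and -1.64 at E12.5, -2.09 and -1.38 at E13.5, -1.65 and -1.46 at E14.5, and -1.44 and -1.33 at E15.5. The E15.5 arrays were the highest pair, and the 2 arrays of E13.5 spanned the values of E12.5 and E14.5. Its difference over the whole span was 0.38 ± 0.27 (limma adjusted p = 0.302, interval -0.26 to 1.02).

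Rarb (chr14:16430839-17082331), the receptor gene whose promoter window above holds the repeat, gave -1.38 and -1.14 at E12.5, -1.72 and -0.83 at E13.5, -1.84 and -1.70 at E14.5, and -1.62 and -1.54 at E15.5. Its values are means of 10 spots of its probe, and those of the other 7 genes come from 1 spot each. The E13.5 arrays held both the highest value and one of the lowest, so E13.5 overlapped E12.5 and E14.5. Its difference from E12.5 to E13.5 was -0.33 on slide 1 and 0.31 on slide 2. Over the whole span it was -0.32 ± 0.30 (limma adjusted p = 0.448, interval -1.04 to 0.41).

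**Figure D3:**
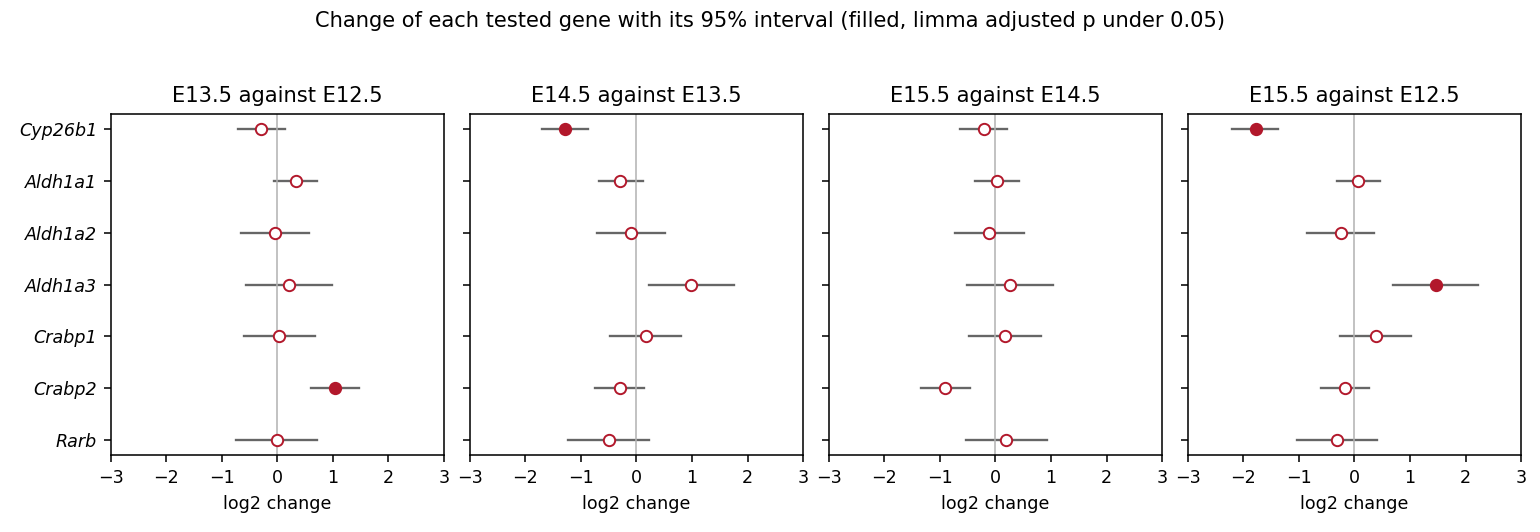
Log2 change of each of the 7 tested genes in the 4 comparisons, with its 95% interval from limma over 2 arrays per stage, the genes ordered by role from degradation at the top to the receptor at the bottom. Filled points have an adjusted p under 0.05 and are Crabp2 from E12.5 to E13.5, Cyp26b1 from E13.5 to E14.5, and Cyp26b1 and Aldh1a3 from E12.5 to E15.5.

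Counted over the 7 tested genes, 1 was called from E12.5 to E13.5, Crabp2, in a comparison that called 3.98% of all genes, 2.68% higher and 1.30% lower. From E13.5 to E14.5, 1 was called, Cyp26b1, where 12.5% of all genes were called, 6.44% higher and 6.04% lower. From E14.5 to E15.5, 0 of 7 were called by limma after adjustment, and at an unadjusted p under 0.05 only Crabp2 passed, where 0.655% of all genes were called, 0.559% higher and 0.0955% lower. Over the whole span 2 were called, Cyp26b1 and Aldh1a3, where 35.0% of all genes were called, 17.6% higher and 17.4% lower. A test over all stages called 3 of 7, with limma adjusted p = 0.0016 for Cyp26b1, 0.00919 for Crabp2 and 0.03 for Aldh1a3, and it called 31.1% of all genes. With 7 genes, counts of 0 to 3 cannot be told from these shares, and nothing is read from them about the group.

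Genes that take up, store and oxidise vitamin A were looked at beside the 8 genes, and those that rose included the enzymes that cut carotenoids. A list of 49 other retinoid pathway genes held 40 that were tested, 8 that were not above background and 1 without a probe, and 13 of the 40 were called in at least 1 comparison. From E12.5 to E15.5, 8 of 40 were higher and 5 lower, with a median change of 0.22, in a comparison that called 17.6% of all genes higher and 17.4% lower. The share of the list was near that background, so its count is no result about the pathway, and the genes below are named for their own values. From E12.5 to E13.5, 4 were higher and 0 lower by limma, where at an unadjusted p under 0.05 there were 6 higher and 1 lower, and from E13.5 to E14.5 2 were higher and 3 lower. From E14.5 to E15.5, 0 of 40 were called by limma after adjustment, and at an unadjusted p under 0.05 there were 4, Rbp4, Rbp7 and Bco1 higher and Cyp1b1 lower. Without 1 array at a time, the number called over the whole span lay between 10 and 14, that from E12.5 to E13.5 between 2 (without E12.5 array 2 or E13.5 array 2) and 5, and that between E13.5 and E14.5 between 0 (without E13.5 array 2) and 7 (without E14.5 array 2).

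The 2 carotenoid-cleaving enzymes rose from below the background. Bco1, which cuts beta-carotene into retinal, was not well above background on either E12.5 array and gave -2.57 and -2.72 at E15.5, at least 9.98-fold higher (limma adjusted p = 9.72e-05). Bco2, which cuts carotenoids off their centre, was likewise dim at E12.5 and gave -0.34 and 0.08 at E15.5, at least 57.0-fold higher (limma adjusted p = 0.000258). These bounds set the E15.5 mean against the E12.5 arrays, each at its weakest signal that still counted as above background or at the probe's own value where higher. They hold for the background subtraction of the scanner software, and under normexp, the alternative correction, which adds an offset of 50 to each signal, the changes over the span were smaller, 1.44 for Bco1 and 3.79 for Bco2 on the log2 scale. The call of Bco1 was lost there (limma adjusted p = 0.335) and held once extreme background values were replaced. Both were also called from E12.5 to E13.5, at least 1.58-fold for Bco1 (limma adjusted p = 0.0041) and 2.21-fold for Bco2 (0.0465), and between E13.5 and E14.5, where both calls were lost without E13.5 array 2 or E14.5 array 1. Bco1 was above background on 1 of the 2 E13.5 arrays. Under normexp with extreme background values replaced, the changes from E12.5 to E13.5 were 0.30 for Bco1 (limma adjusted p = 0.612) and 0.47 for Bco2 (0.335), below these bounds and not called. For Bco2 the call from E12.5 to E13.5 was lost without any array but E12.5 array 1, at measured changes between 1.81 and 2.89.

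Genes that carry or store retinol rose over the span as well. Rbp4, the retinol carrier of the blood, rose by 2.38 ± 0.24 (limma adjusted p = 0.000925), from -0.19 and -0.41 at E12.5 to 1.93 and 2.22 at E15.5. Rbp7, a cellular retinol-binding protein, rose by 1.64 (limma adjusted p = 0.00243). Lrat, which esterifies retinol for storage, was not well above background at E12.5 and by E15.5 was higher at least 4.17-fold (limma adjusted p = 0.00325). Under both normexp corrections the change of Lrat was 0.38, below that bound, and the call was lost (limma adjusted p = 0.817, and 0.222 with extreme values replaced). A further probe of Lrat stayed below background on all arrays. Rbp2, a retinol-binding protein known from the intestine, went the other way and fell by 1.42 (limma adjusted p = 0.0042). Under normexp the changes were 0.75 for Rbp7 and -0.89 for Rbp2, and both calls were lost (limma adjusted p = 0.55 and 0.434) but held with the same changes once extreme background values were replaced.

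Among the enzymes that turn retinol into retinal, Adh1 and Adh4, both alcohol dehydrogenases, rose within slides. Adh1 rose by 2.41 ± 0.18 from E12.5 to E13.5 (limma adjusted p = 0.00221), from 2.50 and 2.25 to 4.70 and 4.87, and a second probe gave 2.45. Adh4 rose by 1.85 over the same step (limma adjusted p = 0.00687), and its call was lost without E12.5 array 2 (0.0513) or E13.5 array 2 (0.0632). Its change was as low as 1.12 under normexp with extreme values replaced. Both moved at the step at which the fetal Leydig cell markers rose, and the part of those cells was not tested. Rdh5, a retinol dehydrogenase, was higher over the span by 1.16 (limma adjusted p = 0.0365), a call lost without either array of E12.5, E13.5 or E15.5. Rdh10, the dehydrogenase that supplies most retinal of the embryo, gave 0.22 over the span (limma adjusted p = 0.433), and Dhrs3, which turns retinal back into retinol, gave 0.06 (0.855).

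Cyp1b1, a cytochrome that can also oxidise retinol, fell by 1.76 ± 0.19 over the span (limma adjusted p = 0.00111). Of 10 tested receptors, carriers and coregulators 3 fell over the span and 0 rose by limma, and at an unadjusted p under 0.05 there were 5 lower and 0 higher. Over all genes, 17.4% were lower and 17.6% higher in this comparison. The 3 were the receptor partner Rxrb by 1.17 (limma adjusted p = 0.0213), the corepressor Ncor1 by 2.45 (0.00141) and the coregulator Nrip1 by 1.26 (0.0381). For Ncor1 the other 2 probes gave -2.49 and -0.55. The calls of Rxrb and Nrip1 were lost without 1 of several arrays, E12.5 array 1, E12.5 array 2 and E15.5 array 2 among them, with adjusted p up to 0.138, and without E15.5 array 2 the change of Nrip1 was -0.69. The receptors Rara, Rarg, Rxra and Rxrg were not called, and Rara gave 1.03 ± 0.69 (limma adjusted p = 0.28) with duplicates of -1.72 and -3.63 at E15.5.

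**Figure D4:**
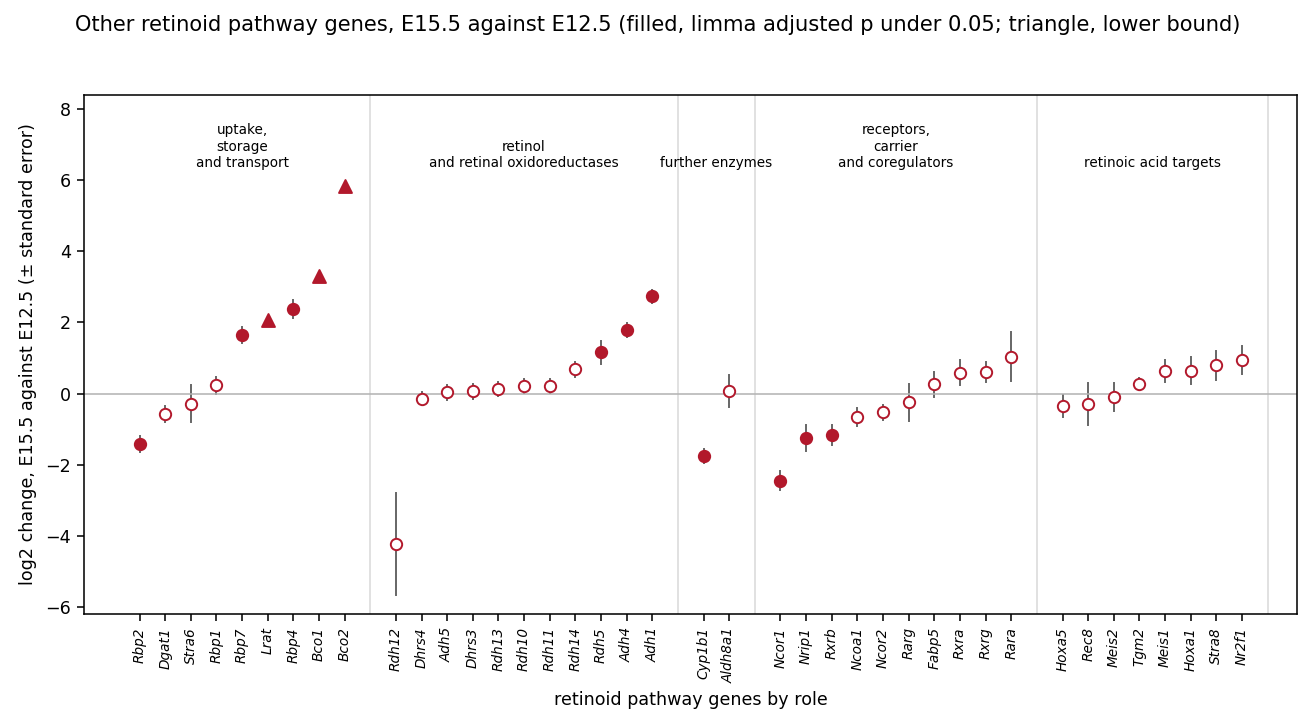
Log2 change from E12.5 to E15.5 of the 40 tested genes of the wider retinoid pathway, grouped by role, with the standard error from limma. Filled symbols have an adjusted p under 0.05, and triangles are lower bounds for Lrat, Bco1 and Bco2, which were not well above background at E12.5. The called rises are among uptake, storage and transport genes and oxidoreductases, and no retinoic acid target is filled. Of all genes, 17.6% were called higher and 17.4% lower in this comparison.

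Of 8 tested genes known as retinoic acid targets, 0 were called by limma in any of the 4 comparisons. At an unadjusted p under 0.05 only Stra8 passed, from E12.5 to E13.5. Of all genes, 3.98%, 12.5% and 0.655% were called in the 3 successive steps and 35.0% over the span. With 8 genes, nothing is read from the count about the targets. Their median change over the span was 0.44, against -0.07 over all genes. From E13.5 to E14.5 it was 0.38, against -0.02 over all genes. Stra8, the meiotic gene that retinoic acid induces in germ cells, gave 0.15 and 0.21 at E12.5, 1.64 and 1.71 at E13.5, 1.40 and 0.03 at E14.5, and 0.78 and 1.17 at E15.5. Its E13.5 arrays were above those of every other stage, with a difference from E12.5 of 1.49 ± 0.42 (limma adjusted p = 0.127). Rec8, a cohesin of meiosis, gave -0.30 over the span (limma adjusted p = 0.721), with E12.5 duplicates of 1.36 and 3.06.

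Genes known to act on Cyp26b1 or beside it in the fetal testis were followed as well. Sox9 and Nr5a1, transcription factors reported to raise Cyp26b1, gave -0.24 (limma adjusted p = 0.732) and -0.40 (0.554) over the span, and Dmrt1 gave -0.40 (0.471). The 3 probes of Sox9 differed in sign from E13.5 to E14.5, between -0.74 and 0.79. Fgf9, a Sertoli cell signal that also keeps germ cells from meiosis, fell by 2.45 ± 0.18 over the span (limma adjusted p = 0.0003), and by 1.37 already from E12.5 to E13.5 (0.0133). That earlier call was lost without either array of E12.5 or E13.5, at a limma adjusted p up to 0.1, and under normexp, where the change was -0.83. Nanos2, the RNA-binding protein of male germ cells, rose by 3.12 from E12.5 to E13.5 (limma adjusted p = 0.0134) and fell by 3.38 over the span (0.00178). It was well above background on only 1 of the 2 E15.5 arrays, so the size of that fall is uncertain. Without either array of E12.5 or E13.5 the rise had an adjusted p between 0.0537 and 0.0884. Foxl2, a gene of female supporting cells, was not well above background at E15.5 and was at least 2.52-fold higher at E12.5 (limma adjusted p = 0.0415), a call lost without E12.5 array 1 or any array of E14.5 or E15.5, at 0.0636 to 0.165, with a change of -1.10 without E12.5 array 1.

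Aldh1a7, a near copy of Aldh1a1, was looked at after its values had been seen. It gave 1.56 and 1.08 at E12.5 and -0.43 and -0.25 at E15.5, a fall of 1.66 ± 0.23 (limma adjusted p = 0.00264), while Aldh1a1 gave 0.07. The probes of such close copies can bind the RNA of both, so how far each value belongs to its own gene is uncertain.

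The genes with the most similar course were taken by Pearson correlation over the 8 arrays among 13474 genes with a symbol, for the 3 tested genes whose stage means spanned 1 or more. For Cyp26b1 they were Mpv17 (r = 0.999), Miga1 (0.998) and Exoc1 (0.998), for Aldh1a3 they were Stambp (0.997), Arl4a (0.996) and Ccdc32 (0.995), and for Crabp2 they were Fmn1 (0.979), Fbxo36 (0.964) and Hus1b (0.952). The 8 arrays share 4 stages and 3 slides, and slide and stage cannot be told apart in these values.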

How the data were processed

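The deposited scanner files give the intensity of each spot, not logged. Agilent Feature Extraction had corrected it for background and for spatial trends, and had not scaled arrays to each other, per the file headers. The version was 9.1.3.1 for E12.5 and E13.5 and 9.5.3.1 for E14.5 and E15.5, and the submitters' processing notes name 9.5. The authors also deposited a table with 1 column per stage, a linear ratio whose centring, scaling and combination of arrays are unknown, which was used here for directions alone.

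Spots of a probe were averaged without outlier spots, divided by the 75th percentile of the array and taken as log2. A probe was kept if both arrays of some stage marked it well above background (28188 of 41174), and the probe of highest mean stood for a gene. RefSeq accessions gave symbols of GRCm38.p6 to 22951 probes and none to 18223. All 8 arrays entered 1 limma 3.58.1 fit (R 4.3.3) with a mean per stage, 4 residual degrees of freedom and 2.57 from the moderated variance. The p-values measure only the spread between duplicates, and the number of arrays limits the precision. The files lack a mean spot signal, so the normexp background correction used the median signal.

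The genes, lists and tests were chosen with earlier results of these data known. Named were the 8 genes, pathway genes called in any comparison, the genes acting on Cyp26b1, the 3 genes of most similar course, and a few others with their values. Alternatives were 2 background corrections (1 added after a few extreme background values were seen), 2 scalings, 2 filters, the mean over probes, outlier spots kept, slide and array number as blocks, the compared arrays alone, and each array left out.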

Additional observations from a re-analysis of the deposited data

How the results depend on the processing

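Over its alternatives, the fall of Cyp26b1 from E12.5 to E15.5 kept its call wherever it was tested, at changes of -1.89 to -1.64. The calls of Crabp2 from E12.5 to E13.5, of Cyp26b1 between E13.5 and E14.5 and of Aldh1a3 over the whole span did not hold in 14, 5 and 3 alternatives, and the cause was not tested except where fewer arrays entered. Signals near background limit Cyp26a1, Crabp2, Bco1, Bco2 and Lrat.

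Normexp background correction called 2 genes from E12.5 to E13.5, 0 between E13.5 and E14.5, 0 from E14.5 to E15.5, 1244 over the whole span and 572 over all stages, and of the 8 genes 0, 0, 0, 1 and 0. Local background values were extreme at 3 probes of E13.5 array 2 and 2 probes of E14.5 array 1. With these replaced, an alternative chosen after seeing the data, it called 551 genes and 0 of the 8 from E12.5 to E13.5, and 232 genes from E14.5 to E15.5. Scaled to the array median, 0 of the 8 were called from E12.5 to E13.5. With no filter, 419 genes and 0 of the 8 were called there, and 872 genes between E13.5 and E14.5. Probes above background on all arrays gave 22 called genes from E14.5 to E15.5, and slide as a fixed block gave 226. With array number as a replicate block, 544 genes and 0 of the 8 were called from E12.5 to E13.5, 1611 genes between E13.5 and E14.5 and 89 from E14.5 to E15.5. Only the arrays compared gave 139 genes and 0 of the 8, 779 genes and 0 of the 8, and 0 genes for the same steps. Array numbers were not taken to pair stages, since deviations of same-numbered arrays correlated across genes at 0.646 for E12.5 with E13.5, which share slides, and at -0.589 for E14.5 with E15.5.

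Without 1 array at a time, called genes ranged from 188 to 695, 220 to 2091, and 0 to 78 for the 3 successive steps, from 3492 to 7934 for the whole span and from 3591 to 6715 over all stages. Of the 8 genes, 0, 0 to 2 and 1 to 2 were called from E12.5 to E13.5, between E13.5 and E14.5, and over the whole span.

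Direction turned in 26 values, of which 25 belong to the 8 genes and were small and not called. Normexp turned Rarb from E12.5 to E13.5 (0.19, and 0.023 with values replaced), Aldh1a1 (0.076), Aldh1a2 (0.26), Crabp1 (-0.32) and Bco1 (-0.93) between E13.5 and E14.5. Median scaling turned Aldh1a2 (0.041) and Rarb (0.078) from E12.5 to E13.5 and Aldh1a1 (-0.12) from E14.5 to E15.5. The authors' deposited table turned Crabp1 from E12.5 to E13.5 (-0.091), Aldh1a1 (-0.22), Crabp1 (-0.073) and Rarb (-0.053) from E14.5 to E15.5, and Aldh1a1 over the span (-0.25), while its median over all genes moved by -0.18, 0.03, -0.23 and -0.39 in the 4 comparisons. Without 1 array, changes from E12.5 to E13.5 ranged from -0.20 to 0.11 for Aldh1a2, -0.32 to 0.39 for Crabp1 and -0.46 to 0.44 for Rarb. Between E13.5 and E14.5 they ranged from -0.32 to 0.12 for Aldh1a2 and -0.18 to 0.53 for Crabp1. From E14.5 to E15.5 they ranged from -0.022 to 0.074 for Aldh1a1, -0.34 to 0.13 for Aldh1a2 and -0.15 to 0.67 for Aldh1a3.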
